A study of Mus musculus with 18 samples.

Results

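The genes described are 10 components of the transforming growth factor beta (TGF-β) pathway, taken by gene name from the table of 51912 genes counted in astrocyte RNA. They are the ligands *Tgfb1*, *Tgfb2* and *Tgfb3*, the receptors *Tgfbr1*, *Tgfbr2* and *Tgfbr3*, the receptor-regulated Smads *Smad2* and *Smad3*, and the feedback inhibitors *Smad7* and *Skil*. The rule was the gene name, with no threshold on any value. Of these 10 genes, 10 passed the filter of at least 10 read pairs over the 18 libraries, which left 24495 genes for testing.

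Translating ribosome affinity purification followed by RNA sequencing was carried out on cortical astrocyte cultures from mice that carry Tg(Aldh1l1-EGFP/Rpl10a)JD130Htz/J on a B6;FVB background. In this line the promoter of *Aldh1l1*, an astrocyte enzyme, drives a green fluorescent protein fused to the ribosomal protein Rpl10a, so that antibodies to the fluorescent protein pull down the ribosomes of cells in which that promoter is active. All cultures came from postnatal day 0 cortices of equal numbers of transgenic male and female mice, were grown for 14 d in serum, replated for 6 d and kept in serum-free medium for 24 h. Dishes then received 50 mM ethanol or control medium, both serum-free, for 24 h. The immunoprecipitated (IP) fraction was sequenced from 6 control and 6 ethanol dishes, and the input fraction, a small part of the same lysate saved before the pull-down, from replicates 4 to 6 of each treatment. The cultures mixed cortices of several mice and of both sexes, and nothing in the labels says that the dishes of a group came from separate cultures, so the p-values measure the spread between dishes. The comparisons addressed what ethanol does to astrocyte RNA in each fraction and which RNA the pull-down enriched.

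TGF-β is secreted bound to its own propeptide and to latency proteins in the matrix, and must be released before it can signal. Released ligand binds the type II receptor, which activates the type I receptor, which in turn phosphorylates Smad2 and Smad3 so that they enter the nucleus with Smad4 and act on target genes. In the brain, astrocytes both make the ligand and respond to it, and the pathway is known for its part in astrocyte maturation, matrix production and scar formation.

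The libraries held between 74239854 and 132810705 read pairs on genes, and each member was covered by at least 948 pairs in every library. Levels are given as CPM, the read pairs of a gene scaled to a common library size after trimmed-mean normalisation. *Aldh1l1* itself was higher in the IP than in the input of the same dish by 1.95-fold to 2.16-fold, whereas *Rpl10a*, whose counts do not separate the native gene from the transgene, was at 0.651 to 0.748 of input. All 10 astrocyte markers examined were detected, and their summed level was 1799 to 1880 CPM in IP control, 1926 to 1999.9 CPM in IP ethanol, 1167 to 1212 CPM in input control and 1222 to 1247 CPM in input ethanol. Of 10 microglial and macrophage markers none was at 0, and their sum lay between 29.4 and 36.9 CPM in the IP fraction and between 113 and 134 CPM in input. Fibroblast and meningeal markers summed to 145.03 to 165.8 CPM in IP and 254 to 263 CPM in input. Oligodendrocyte-lineage markers summed to between 259 and 424 CPM, neuronal markers to between 161 and 231 CPM and ependymal markers to between 391 and 515 CPM over the 18 libraries. Endothelial markers summed to 12.7 to 16.1 CPM, with *Cldn5* at 0 in every library, and the neuronal marker *Neurod6* was at 0 in 3 of the 4 groups. Mural markers, of which *Acta2* gave most of the counts, summed to 1402 to 1899 CPM in control and 1008 to 1397 CPM in ethanol libraries.

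Compared per length, as TPM, in which the pairs of a gene are first divided by the length of the union of its exons and then scaled to a common total, the transcripts of a ligand and of a Smad stood at the top of the list in every group. In IP control, *Tgfb3* (165.2 TPM) and *Smad3* (162.9 TPM) led and overlapped between libraries, followed by *Tgfbr2* at 79.3 TPM and *Tgfb2* at 47.4 TPM. *Tgfb1* (20.4 TPM) overlapped *Smad2* (20.1 TPM), *Tgfbr3* (16.7 TPM) overlapped *Smad7* (16.1 TPM), and *Skil* (10.5 TPM) and *Tgfbr1* (7.19 TPM) came last. In IP ethanol *Smad3* (166.1 TPM) and *Tgfb3* (159.5 TPM) led and overlapped, *Tgfb1* was at 23.3 TPM, above *Smad2* (19.9 TPM) without overlap, and *Tgfbr3*, at 20.4 TPM, overlapped *Smad2*. The input order differed mainly at *Tgfb1*, which at 44.0 TPM in control stood above *Tgfb2* at 35.5 TPM, without overlap. In input control the other levels were 142 TPM for *Tgfb3*, 129 TPM for *Smad3*, 117 TPM for *Tgfbr2*, 24.3 TPM for *Tgfbr3*, 19.8 TPM for *Smad2*, 14.4 TPM for *Smad7*, 10.8 TPM for *Skil* and 9.77 TPM for *Tgfbr1*, and no neighbours overlapped. The length taken matters for *Tgfb1*, whose exon union of 5042 bases is longer than its longest transcript of 2573 bases: on the latter its level was 30.2 TPM in IP control, already without overlap with *Smad2* (16.5 TPM), and 66.2 TPM in input control. All these levels rest on the deposited counts, which left out 20.4% of the read pairs at *Tgfb3* because they overlapped another gene. That share was 0.219% at *Tgfb1*, 2.10% at *Tgfb2* and 0.0% at *Smad3*. The level of *Tgfb3* is therefore understated beside theirs, and its order with *Smad3* may depend on how these pairs are counted.

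Among the ligands, *Tgfb3* made up 70.9% ± 0.636 (SD, n = 6) of the summed ligand TPM in IP control and 68.4% ± 1.46 (n = 6) in IP ethanol, against 64.1% ± 0.302 (n = 3) and 60.04% ± 1.19 (n = 3) in input control and input ethanol. The share of *Tgfb1* was 8.75% ± 0.443 in IP control, 9.99% ± 0.315 in IP ethanol, 19.9% ± 0.362 in input control and 22.2% ± 0.473 in input ethanol. With the longest transcript as length, those 4 shares of *Tgfb1* were 15.4%, 17.4%, 32.1% and 35.2%, and those of *Tgfb3* were 63.8%, 60.8%, 52.9% and 48.6%. With either length the ligand shares leave out the 20.4% of *Tgfb3* pairs named above, and so understate the share of *Tgfb3*. Among the receptors, *Tgfbr2* took 76.9% of the summed TPM in IP control and *Tgfbr1* 6.97%, and the share of *Tgfbr3* was 16.2% ± 0.454 in IP control, 18.8% ± 0.282 in IP ethanol, 16.1% ± 0.461 in input control and 18.0% ± 0.301 in input ethanol.

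**Figure D1:**
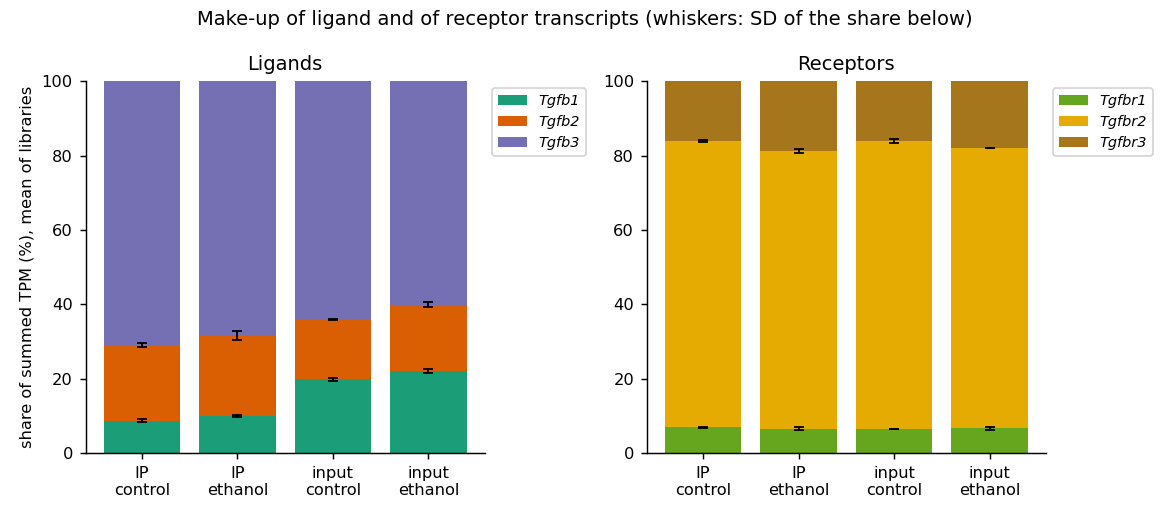
Stacked share of the summed TPM (percent, exon-union length) of the 3 ligands and of the 3 receptors in the 4 groups, as means over libraries, with whiskers for the SD of the share below them (n = 6 for IP, n = 3 for input). *Tgfb3* was the most abundant ligand in each group, and the *Tgfb1* share was 8.75% in IP control and 19.9% in input control. Pairs that overlapped another gene, 20.4% of those at *Tgfb3*, were not counted.

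In the IP fraction, *Tgfb1*, *Tgfb2* and *Tgfbr3* rose after ethanol and no member fell. These 3 of 10 stood against 21.4% of all 24495 genes called at an adjusted p-value under 0.05 (11.9% higher and 9.48% lower), in edgeR's quasi-likelihood test with Benjamini-Hochberg adjustment over all genes tested. In the input fraction *Tgfb1*, *Tgfb2* and *Tgfbr3* rose and *Tgfb3* fell, so that 4 of 10 members were called against 15.0% of all genes (7.21% higher and 7.78% lower). These shares include many genes of low count, whereas all 10 members averaged 5 CPM or more. With a filter of at least 1 CPM in 3 libraries the share called was larger, at 5389 of 13481 genes in IP and 3623 of 13684 in input. Both comparisons had members among the genes whose control and ethanol libraries did not overlap: *Tgfb1* and *Tgfbr3* in IP, where 9.96% of genes had no overlap, and *Tgfb1*, *Tgfb2*, *Tgfb3* and *Tgfbr3* in input, where 27.1% had none. The median log2 fold change of the members was 0.01 in IP and 0.04 in input, beside 0.0054 and -0.00092 over all genes tested. Input and IP libraries of replicates 4 to 6 came from the same dishes, so the 2 comparisons are not independent.

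**Figure D2:**
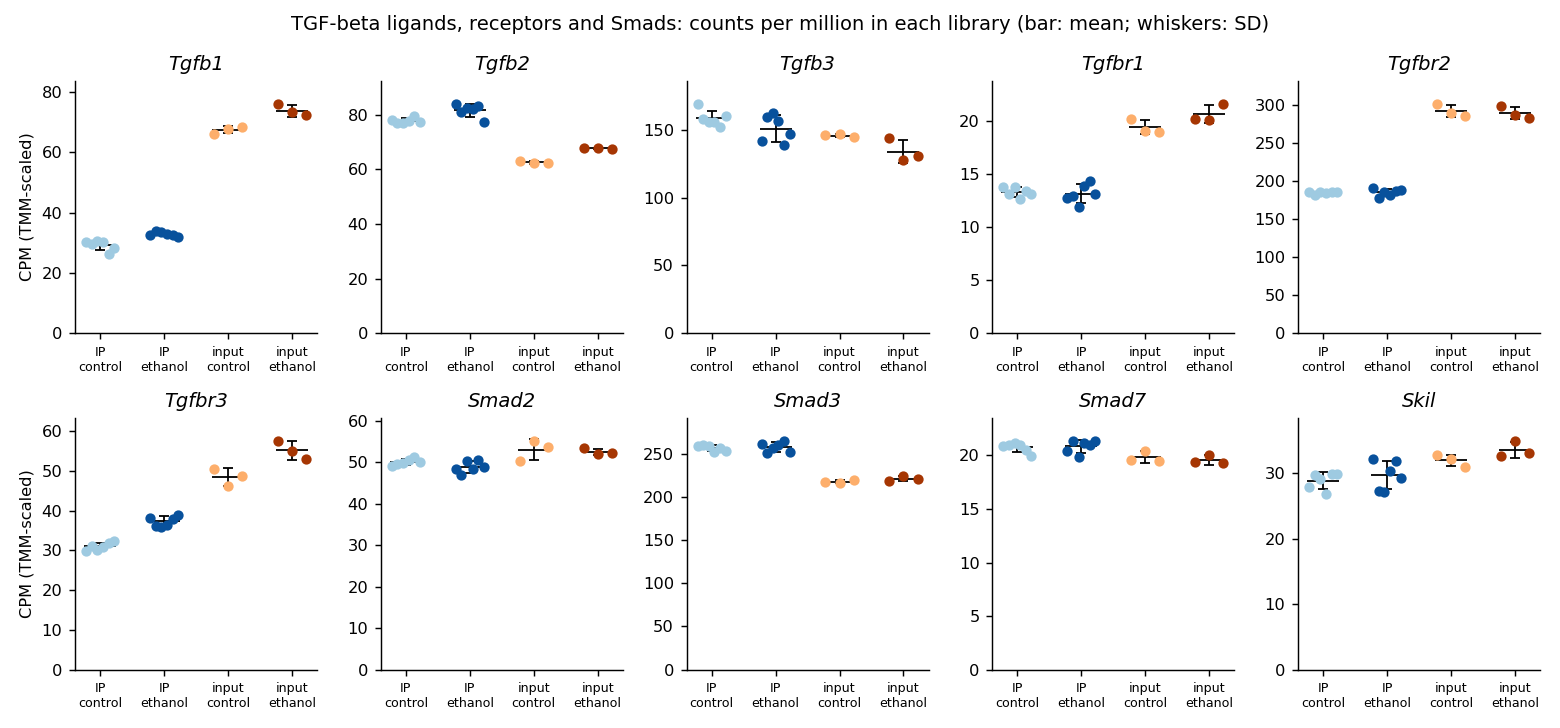
Level of each member in every library (CPM, 1 panel a gene, each axis from 0), by group, with a point for each library, a bar at the group mean and whiskers of SD. The ethanol libraries of *Tgfbr3* lay above the control libraries in IP (36.0 to 38.9 against 29.9 to 32.3 CPM) and in input (53.0 to 57.6 against 46.1 to 50.5 CPM).

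*Tgfb1* (ENSMUSG00000002603, GRCm38 chr7:25687002-25705077, plus strand) encodes the ligand most studied in injury and fibrosis. Its IP level was 26.1 to 30.5 CPM in the control libraries (median 29.9) and 32.0 to 33.7 CPM in the ethanol libraries (median 32.8). In input the control dishes measured 66.1, 67.9 and 68.5 CPM and the ethanol dishes 76.0, 73.2 and 72.2 CPM. The treatments did not overlap in either fraction. The log2 fold change was 0.18 (SE 0.034, adjusted p = 5.28e-05, 1.13-fold) in IP and 0.13 (SE 0.029, adjusted p = 0.000266, 1.09-fold) in input. Microglial and macrophage markers were at a sum of 29.4 to 32.8 CPM in IP control and 32.7 to 36.9 CPM in IP ethanol, with 2 of 10 higher by the test, *Csf1r* and *Cd68*, and at 113 to 117 CPM in input control and 117 to 134 CPM in input ethanol, with 3 of 10 higher, those 2 and *Ptprc*. Over all genes 11.9% were higher in IP and 7.21% in input. The part of these cells in the *Tgfb1* difference was not tested, and in bulk RNA more cells of a type cannot be told apart from more RNA per cell.

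*Tgfb2* (ENSMUSG00000039239, chr1:186622792-186705989, minus strand) encodes the ligand that depends most on the co-receptor Tgfbr3 for binding. It measured 76.9 to 79.5 CPM in IP control (median 77.7) and 77.3 to 84.0 CPM in IP ethanol (median 82.4). The IP groups overlapped, since the lowest ethanol library lay among the controls. The IP difference was small, with a log2 fold difference of 0.08 (SE 0.026, adjusted p = 0.0211, 1.06-fold). Leaving out IP control replicate 2, 3, 4 or 6 or IP ethanol replicate 3 took the adjusted p-value past the threshold, to 0.0724, 0.0804, 0.0682, 0.0663 and 0.0585 in that order, and within replicates 4 to 6 the log2 fold change was 0.05 (adjusted p = 0.426). In input, controls of 63.1, 62.3 and 62.4 CPM and ethanol dishes of 68.0, 67.8 and 67.7 CPM did not overlap, with a log2 fold difference of 0.11 (SE 0.030, adjusted p = 0.00262, 1.08-fold).

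*Tgfb3* (ENSMUSG00000021253, chr12:86056745-86079041, minus strand), a ligand known for palate fusion and scarless repair, measured 152.7 to 169.3 CPM in IP control (median 157.2) and 138.9 to 162.5 CPM in IP ethanol (median 151.9), and the groups overlapped. Its IP log2 fold change was -0.06 (SE 0.035, adjusted p = 0.230), and without IP ethanol replicate 3 it was -0.09 and passed the test (adjusted p = 0.0347). In input the controls measured 146.1, 146.99 and 144.8 CPM and the ethanol dishes 143.99, 127.8 and 130.7 CPM. All 3 ethanol values lay below the controls, replicate 4 only just, and *Tgfb3* fell by 0.13 on the log2 scale (SE 0.024, adjusted p = 6.40e-06), a level 0.916 times that of control. Of the read pairs on either strand at *Tgfb3*, 20.4% were set aside in the deposited counts because they overlapped a gene on the opposite strand (*Gm37804* or *AC134328.1*), and with pairs of the annotated strand the input log2 fold change was -0.11 (adjusted p = 0.000104). In a fit of all 4 groups, which share 1 estimate of the spread over the 18 libraries, it was -0.12 and did not pass (adjusted p = 0.216).

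**Figure D3:**
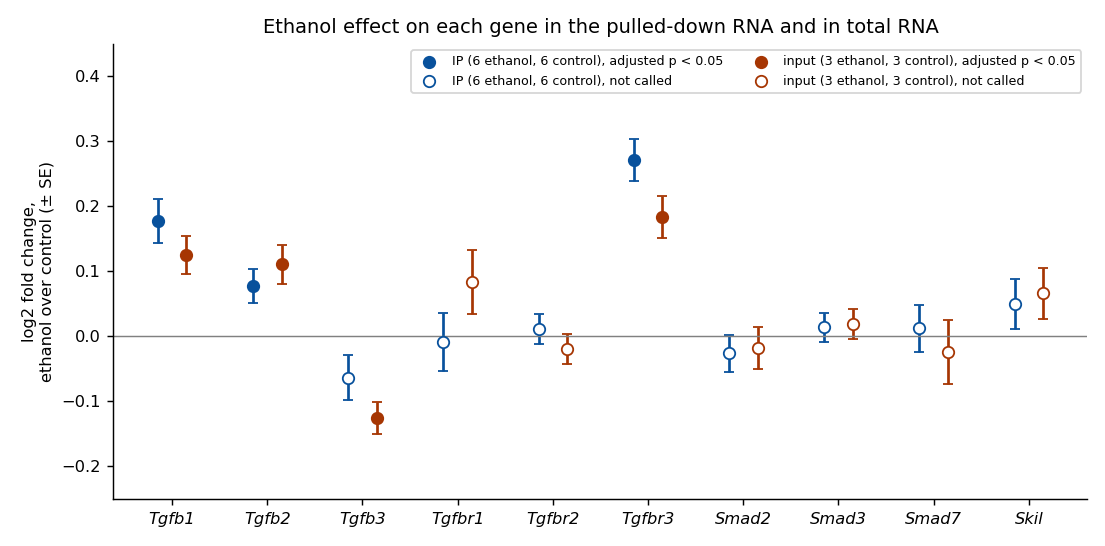
Log2 fold change of ethanol over control for the 10 members in IP (blue) and input (brown), with whiskers of 1 SE on each side and filled points for calls at an adjusted p-value under 0.05. *Tgfbr3* (0.27 in IP, 0.18 in input) and *Tgfb1* (0.18 and 0.13) stood highest in both fractions.

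The promoters of *Tgfb1* and *Tgfb2* are printed because they are the members that rose in both fractions and have an entry in the RefSeq promoter table. They are the 250 bases before the annotated start in GRCm38.p6, for *Tgfb1* chr7:25686752-25687001 on the plus strand and for *Tgfb2* chr1:186705990-186706239 on the minus strand, 5′ to 3′ along the gene, and capitals mark matches to the motifs searched on both strands.
Tgfb1: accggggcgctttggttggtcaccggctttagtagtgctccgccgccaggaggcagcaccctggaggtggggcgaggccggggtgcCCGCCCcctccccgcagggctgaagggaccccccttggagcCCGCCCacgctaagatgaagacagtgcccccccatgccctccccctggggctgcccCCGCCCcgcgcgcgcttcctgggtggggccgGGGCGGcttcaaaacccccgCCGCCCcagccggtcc
Tgfb2: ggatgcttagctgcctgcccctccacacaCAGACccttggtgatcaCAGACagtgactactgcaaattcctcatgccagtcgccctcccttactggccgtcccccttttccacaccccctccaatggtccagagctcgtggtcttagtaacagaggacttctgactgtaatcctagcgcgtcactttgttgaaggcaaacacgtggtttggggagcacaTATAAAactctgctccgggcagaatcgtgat
The motifs were the Smad box CAGAC, found in 42.2% of the 32851 promoters of the table, its palindrome GTCTAGAC (0.167%), the AP-1 site TGACTCA (4.46%), the cAMP response element TGACGTCA (1.55%), the GC box GGGCGG (32.7%) and the TATA box TATAAA (12.4%). The *Tgfb1* stretch held 5 GC boxes and no other match, and its GC content was 75.2%. The *Tgfb2* stretch held 2 Smad boxes and 1 TATA box, with a GC content of 53.6%. Entries were found for 5 of the 10 members, the others being *Tgfbr1*, *Tgfbr2* and *Smad3*. A match describes the letters and is no evidence of binding.

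Among the receptors, *Tgfbr3* rose in both fractions and the signalling receptors *Tgfbr1* and *Tgfbr2* passed the test in neither. *Tgfbr3* (ENSMUSG00000029287, chr5:107106570-107289629, minus strand), also called betaglycan, is a membrane proteoglycan that presents ligand to the signalling receptors. In IP it measured 29.9 to 32.3 CPM in control (median 31.0) and 36.0 to 38.9 CPM in ethanol (median 37.2), with a gap between the groups. Its log2 fold difference of 0.27 (SE 0.032, adjusted p = 7.91e-10, 1.21-fold) was the largest of the 10 members. The input controls were at 50.5, 46.1 and 48.8 CPM and the ethanol dishes at 57.6, 54.9 and 53.0 CPM, again without overlap, with a log2 fold difference of 0.18 (SE 0.033, adjusted p = 7.91e-07, 1.14-fold). A gene on the same strand, *Gm43422*, shares 297 exon bases with *Tgfbr3* in the GENCODE annotation. Whether pairs there were left out of the deposited counts was not tested.

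*Tgfbr2* (ENSMUSG00000032440, chr9:116084293-116175360, minus strand), the receptor that binds ligand first, was at 181 to 186 CPM in IP control (median 185) and 178 to 190.3 CPM in IP ethanol (median 186). The input controls measured 301, 289 and 286 CPM and the ethanol dishes 298, 287 and 282 CPM. The treatments overlapped in both fractions, and the log2 fold changes were 0.01 (adjusted p = 0.806) and -0.02 (adjusted p = 0.691). *Tgfbr1* (ENSMUSG00000007613, chr4:47353222-47414931, plus strand), the kinase that phosphorylates the Smads, had the fewest read pairs of the members (948 to 1849 a library). Its levels were 12.7 to 13.8 CPM in IP control (median 13.3) and 11.9 to 14.4 CPM in IP ethanol (median 13.0), and in input 20.2, 19.1 and 19.0 CPM in control and 20.2, 20.1 and 21.6 CPM in ethanol. The groups overlapped, and intervals of 2 SE on each side ran from -0.10 to 0.08 around the IP log2 fold change of -0.01 (adjusted p = 0.932) and from -0.01 to 0.18 around the input value of 0.08 (adjusted p = 0.30003).

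None of the 4 intracellular members passed the test in either fraction. *Smad3* (ENSMUSG00000032402, chr9:63646767-63757994, minus strand), which binds DNA directly, was at 251 to 260.1 CPM in IP control (median 257) and 251 to 265 CPM in IP ethanol (median 258), with input values of 217, 216 and 219 CPM in control and 218, 224 and 220.1 CPM in ethanol. *Smad2* (ENSMUSG00000024563, chromosome 18), its partner, was at 49.1 to 51.3 CPM in IP control (median 49.9) and 46.9 to 50.6 CPM in IP ethanol (median 48.6), with input values of 50.2, 55.2 and 53.7 CPM in control and 53.4, 52.1 and 52.3 CPM in ethanol. Both overlapped between treatments, with log2 fold changes of 0.01 and 0.02 for *Smad3* and -0.03 and -0.02 for *Smad2* in IP and input.

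*Smad7* (ENSMUSG00000025880, chromosome 18) blocks the type I receptor and is itself induced by TGF-β in many cells. It measured 19.9 to 21.2 CPM in IP control (median 20.9) and 19.8 to 21.4 CPM in IP ethanol (median 21.0), with 19.6, 20.4 and 19.5 CPM in input control and 19.4, 20.1 and 19.2 CPM in input ethanol. *Skil* (ENSMUSG00000027660, chr3:31095058-31122577, plus strand) encodes SnoN, a repressor of Smad-driven transcription that is degraded and then re-induced when the pathway is active. Its level was 26.7 to 29.8 CPM in IP control (median 29.4) and 27.2 to 32.1 CPM in IP ethanol (median 29.8), with 32.7, 32.2 and 31.0 CPM in input control and 32.6, 34.9 and 33.1 CPM in input ethanol. Neither inhibitor separated the treatments. The log2 fold changes were 0.01 (adjusted p = 0.867) and -0.02 (adjusted p = 0.846) for *Smad7* and 0.05 (adjusted p = 0.417) and 0.07 (adjusted p = 0.306) for *Skil* in IP and input.

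No member was called for a different ethanol effect in the 2 fractions (0 of 10), and none of the 24495 genes was. At an unadjusted p-value under 0.05 there were 1459 genes (5.96%), DESeq2 called 2 genes, and a fit with a term for each dish, over the 12 libraries from dishes with both fractions, called 102 (0.416%), with 0 of 10 members among them. The IP minus input difference in log2 fold change was 0.04 for *Tgfb1*, 0.08 for *Tgfbr3* (adjusted p = 0.874) and 0.05 for *Tgfb3* (adjusted p = 0.946). For *Tgfbr1* it was -0.10 (SE 0.070, adjusted p = 0.874), with an interval of 2 SE on each side from -0.24 to 0.04, and the dish block turned it to 0.015 (adjusted p = 0.996). For *Tgfb3*, called in input and not in IP, that interval ran from -0.08 to 0.19, so its ethanol effect is not shown to differ between the fractions.

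The comparison of IP with input, over all 18 libraries with treatment as a term, gave the RNA whose share on the pulled-down ribosomes differed from its share in the whole lysate. *Tgfb1* and the 3 receptors were lower in IP, *Tgfb2* and *Smad3* were higher, and *Tgfb3*, *Smad2*, *Smad7* and *Skil* differed from input by less. All 10 members passed the test, 4 higher and 6 lower, where 51.0% of all genes did (25.2% higher and 25.8% lower), so a call by itself separates the members little from other genes. With a filter of at least 1 CPM in 3 libraries, 10688 of 13850 genes passed. The fit had no term for the dish, although IP and input libraries of replicates 4 to 6 came from the same dishes. With such a term, over the 12 libraries of dishes with both fractions, every member but *Smad7* was called, as were 11659 of all 24495 genes. For 6 of 10 members no IP library overlapped an input library (25.0% of all genes): *Tgfb1*, *Tgfbr1*, *Tgfbr2* and *Tgfbr3* below and *Tgfb2* and *Smad3* above. The median log2 fold change of the members was -0.13, beside -0.03 over all genes tested.

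In the 6 dishes with both fractions, the IP level of *Tgfb1* was 0.385 to 0.459 of the input level (mean 0.430 ± 0.0267, SD), in each dish the lowest ratio of the 10 members. The fitted log2 fold change was -1.19 (SE 0.025, adjusted p = 9.48e-52). The other ligands lay on the opposite side of input. For *Tgfb2* the ratio was 1.14 to 1.28 (mean 1.22 ± 0.0449) with a log2 fold difference of 0.29 (SE 0.021, adjusted p = 1.60e-20), and for *Tgfb3* it was 1.04 to 1.12 (mean 1.09 ± 0.0298) with a log2 fold difference of 0.15 (SE 0.033, adjusted p = 0.000793). The *Tgfb3* libraries overlapped between the fractions, at 138.9 to 169.3 CPM in IP and 127.8 to 146.99 CPM in input, whereas within a dish IP was higher in all 6.

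The receptors resembled each other in this comparison. *Tgfbr2* had IP to input ratios of 0.609 to 0.667 (log2 fold change -0.65, SE 0.018, adjusted p = 8.28e-44), *Tgfbr1* ratios of 0.606 to 0.713 (-0.60, SE 0.035, adjusted p = 5.35e-25) and *Tgfbr3* ratios of 0.611 to 0.735 (-0.60, SE 0.026, adjusted p = 6.92e-33). No dish reached the input level for any receptor.

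Of the intracellular members, *Smad3* was higher in IP in all 6 dishes, at 1.14 to 1.19 times input (log2 fold change 0.23, SE 0.018, adjusted p = 1.44e-18). *Smad2* was at 0.907 to 1.005 times input (-0.09, SE 0.023, adjusted p = 0.000397) and *Skil* at 0.819 to 0.962 times input (-0.16, SE 0.031, adjusted p = 5.35e-06). *Smad7*, at 1.004 to 1.11 times input, had a log2 fold difference of 0.08 (SE 0.030, adjusted p = 0.0277). When a term for the dish was fitted in the 12 matched libraries (a replicate block), its value was 0.07 and did not pass (adjusted p = 0.0738), nor did it without input control replicate 4 (0.0508) or 6 (0.0561) or without input ethanol replicate 4 (0.0823) or 6 (0.0660). Total-count scaling gave 0.03 (adjusted p = 0.520), so that the direction of *Smad7* held but not its call.

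**Figure D4:**
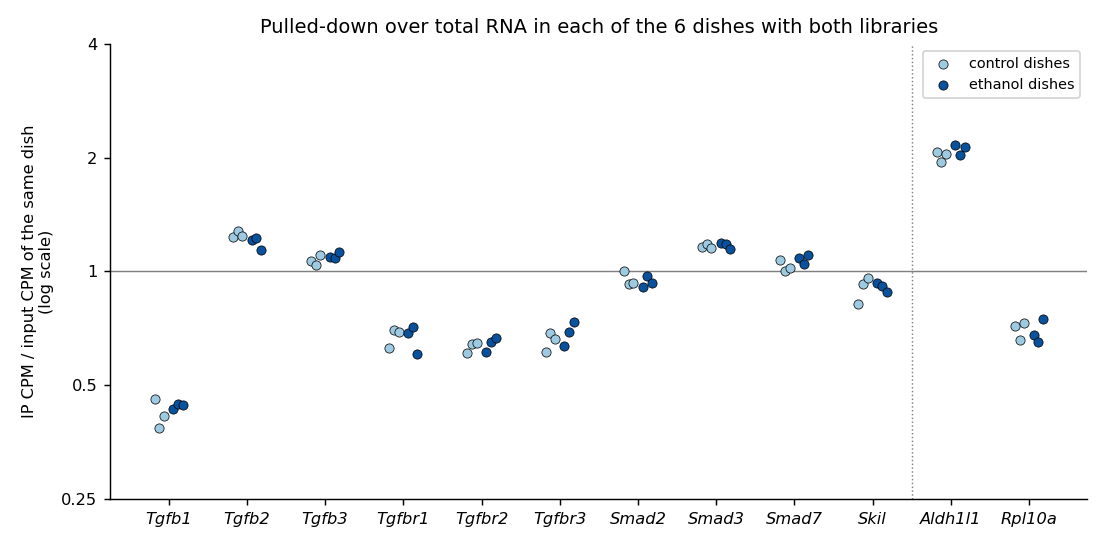
Ratio of the IP to the input level (CPM over CPM, log axis) in each of the 6 dishes with both fractions, with control dishes in light and ethanol dishes in dark blue, for the 10 members and, right of the dotted line, for *Aldh1l1* and *Rpl10a*. The line at 1 marks equal levels, and *Tgfb1* lay between 0.385 and 0.459 and *Aldh1l1* between 1.95 and 2.16.

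Markers of cell types were read in the same comparison, in which 25.2% of all genes were higher in IP and 25.8% lower. Only the microglial and macrophage list had all its calls in 1 direction. Of the 10 microglial and macrophage markers 9 were lower in IP, with a median log2 fold change of -2.43, and *P2ry12* was not called. Of the fibroblast and meningeal markers 5 of 10 were lower, among them *Col1a1* at 46.6 CPM in IP and 143 CPM in input, and 4 of 10 were higher. Astrocyte markers were higher in 8 of 10 and lower in 1 of 10, *S100b*. Of the neuronal markers 5 of 9 tested were higher and 1 lower, of the oligodendrocyte-lineage markers 5 of 10 higher and 4 lower, of the endothelial 1 of 8 tested higher and 4 lower, of the mural 4 of 10 higher and 3 lower, and of the ependymal 2 of 10 higher and 2 lower. The part of these cells in the input level of *Tgfb1* and of the receptors was not tested.

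The other genes of the pathway were read from 5 lists of latency and activation, receptor components, Smads and their regulators, TGF-β target genes, and the related bone morphogenetic protein (BMP) and activin arm. *Smad6*, *Pmepa1*, *Ltbp2*, *Thbs1* and *Tgif1* stand in 2 lists each. The shares over all genes given beside the lists include many genes of low count. With a filter of at least 1 CPM in 3 libraries, 5389 of 13481 genes were called in IP (2647 higher, 2742 lower). In input 3623 of 13684 were called with that filter (1708 higher, 1915 lower). No gene of any list was called for a different ethanol effect between fractions in the fit over 18 libraries. With the replicate block for the dish, in the 12 matched libraries, 2 latency genes and 1 target gene were called, all higher in IP than in input by the difference of the log2 fold changes: *Ltbp3* (0.13, adjusted p = 0.0227), *Fbn1* (0.18, adjusted p = 0.0189) and *Col1a1* (0.21, adjusted p = 0.00133), which were named after their values were seen.

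Ligand is stored in the matrix and released by proteins of the latency list, of which 8 of 21 were called after ethanol in IP (5 higher, 3 lower) and 8 of 21 in input (4 higher, 4 lower). Over all genes 21.4% were called in IP and 15.0% in input. The input count was 5 without input control replicate 5 and 3 in the fit of all 4 groups. *Thbs1*, a matrix protein able to activate latent TGF-β, fell by 0.31 on the log2 scale in IP (SE 0.028), from a mean of 1588 to 1272 CPM, and by 0.34 in input (SE 0.022). *Lrrc32*, which tethers latent ligand to the cell surface, fell by 0.30 in IP (SE 0.048) and by 0.21 in input (SE 0.065), a call that was lost without input control replicate 6 or input ethanol replicate 4 or 6. The integrin subunit gene *Itgb5* rose by 0.22 in IP and 0.12 in input. *Itgb8*, whose product frees latent ligand together with the αv subunit, rose by 0.19 in input, a call lost in the fit of all 4 groups (adjusted p = 0.134), and its IP value of 0.13 was not called (adjusted p = 0.163). *Plau*, which encodes the protease urokinase, fell by 0.20 in IP, but its value was -0.09 and not called within replicates 4 to 6 (adjusted p = 0.449). The list's median log2 fold change was 0.06 in IP and 0.01 in input.

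The list of receptor components held 12 other genes, not all of them parts of the receptor itself. Of these, 5 were called in IP (4 higher, 1 lower) and 6 in input (4 higher, 2 lower), against 21.4% and 15.0% of all genes. *Bambi*, a decoy receptor without a kinase, fell by 0.17 on the log2 scale in both fractions (SE 0.034 in IP and 0.045 in input), and *Zfyve9*, which encodes the anchor protein SARA that brings Smads to the receptor, rose by 0.15 in both. *Cd109*, a TGF-β co-receptor that limits signalling, rose by 0.13 in IP. *Itfg1*, whose place in the pathway was not tested, rose by 0.09 in IP and was not called within replicates 4 to 6 (0.06, adjusted p = 0.221). In input *Eng*, the co-receptor endoglin, rose by 0.28 (SE 0.081) and the adaptor *Dab2* fell by 0.12. *Eng* lost its call without input control replicate 5 (adjusted p = 0.0664) or input ethanol replicate 5 (0.0549), *Dab2* without input control replicate 6 (0.0916) or input ethanol replicate 4 (0.0602) or in the fit of all 4 groups (0.0507), and *Bambi* in input without input ethanol replicate 4 (0.0635). The list's median was 0.09 in IP and 0.03 in input.

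Of 24 other Smads and Smad regulators 9 were higher and 1 lower in IP, and 8 were higher and 3 lower in input. Over all genes 11.9% were higher and 9.48% lower in IP, and 7.21% and 7.78% in input. Within IP replicates 1 to 3 the list had 3 calls, and its input calls numbered 6 without input control replicate 5 and 5 in the fit of all 4 groups. The largest changes were of Smads that carry BMP signals: *Smad9* rose by 0.25 on the log2 scale in IP (SE 0.044) and 0.23 in input (SE 0.058), and *Smad1* by 0.16 in IP (SE 0.030) and 0.12 in input (SE 0.036). *Smad4*, the partner shared by both arms, rose by 0.13 in IP (SE 0.027) and 0.10 in input (SE 0.028), and *Fkbp1a*, whose product holds the type I receptor inactive, fell by 0.12 in IP. The IP call of *Smad4* held in 10 of 11 alternative analyses (highest adjusted p = 0.0895), the test against a 1.2-fold change aside. *Trim33*, a ubiquitin ligase that acts on Smad4, rose by 0.12 in input. The input calls of *Smad1*, *Smad4* and *Trim33* each depended on single libraries. *Smad1* lost its call without input control replicate 5 (adjusted p = 0.0831) or input ethanol replicate 4 (0.0895), *Smad4* without input control replicate 6 (0.0804), and *Trim33* without input control replicate 5 (0.0556) or 6 (0.0612) or input ethanol replicate 4 (0.0760). The median was 0.05 in IP and 0.05 in input.

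TGF-β target genes went both ways, with 7 higher and 8 lower of 37 in IP and 8 higher and 8 lower in input, and medians of -0.01 and -0.02. The shares over all genes were 11.9% higher and 9.48% lower in IP, and 7.21% and 7.78% in input. The genes that moved furthest were contractile genes, known as smooth muscle and myofibroblast genes: *Cnn1* fell by 0.70 on the log2 scale in IP (SE 0.055) and 0.73 in input (SE 0.027), *Acta2* by 0.56 in IP (SE 0.040), from 1589 to 1069 CPM, and 0.59 in input (SE 0.022), and *Tagln* by 0.51 in IP (SE 0.063). *Acta2* is also a mural marker and gave most of that list's sum, in which 2 of 10 markers were lower and 2 higher in IP and 1 was lower and 1 higher in input; the part of mural cells was not tested. *Ncan*, the proteoglycan neurocan of the astrocyte matrix, rose by 0.33 in IP (SE 0.025), and *Postn*, the matrix protein periostin, fell by 0.39 in input (SE 0.081), a call lost with a filter of 1 CPM (adjusted p = 0.0517).

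Genes of the BMP and activin arm were higher in 11 and lower in 0 of the 31 tested in IP, where 11.9% of all genes were higher, and in input 8 were higher and 2 lower (7.21% and 7.78% of all genes), or 6 called in all in the fit of all 4 groups. *Id2* and *Id3*, transcriptional inhibitors that BMP signals induce, rose by 0.19 and 0.13 on the log2 scale in IP (SE 0.030 and 0.026) and by 0.26 and 0.15 in input (SE 0.032 and 0.023). *Id1* and *Id4*, the other Id genes of the list, were not among the 4 genes named in either fraction. *Bmpr1a*, a type I BMP receptor, rose by 0.17 in IP (SE 0.044), a call lost without IP ethanol replicate 5 (adjusted p = 0.0507), and by 0.18 in input (SE 0.023), where the fit of all 4 groups did not call it (adjusted p = 0.0519). *Acvr1b*, the activin type I receptor, rose by 0.16 in IP (SE 0.033), and the ligand *Bmp4* fell by 0.18 in input (SE 0.036). Within IP replicates 1 to 3 alone 7 of the 31 were called. The median was 0.07 in IP and 0.03 in input.

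**Figure D5:**
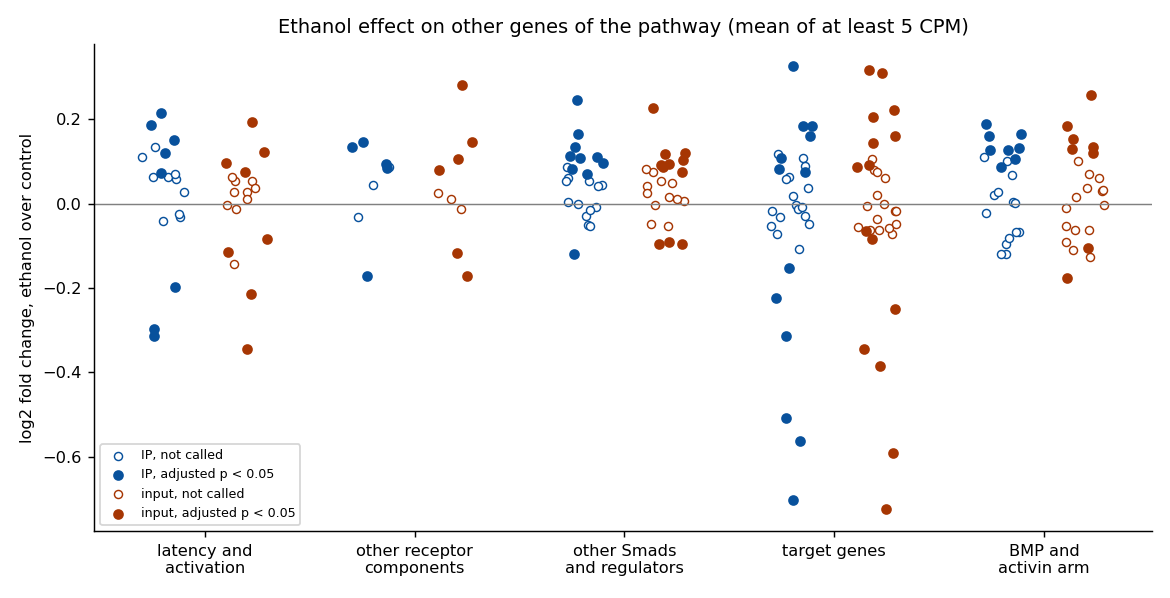
Log2 fold change of ethanol over control for the genes of the 5 pathway lists that averaged 5 CPM or more, in IP (blue) and in input (brown), with a point for each gene, filled where it was called. The target genes spread furthest, with *Cnn1* at -0.70 and *Acta2* at -0.56 in IP, and the points of *Smad1*, *Smad4* and *Smad9* lay above 0 in both fractions.

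Between fractions, 17 of 21 latency genes were called (7 higher in IP, 10 lower), 7 of 12 receptor components (3 higher, 4 lower), 21 of 24 Smad genes (9 higher, 12 lower), 36 of 37 targets (20 higher, 16 lower) and 21 of 31 BMP and activin genes (11 higher, 10 lower), against 51.0% of all genes. With a filter of at least 1 CPM in 3 libraries the share over all genes was larger, at 10688 of 13850 (5268 higher, 5420 lower). Latent TGF-β binding proteins stood at both ends: *Ltbp4* was lower in IP by a log2 fold difference of -1.91 (SE 0.036) and *Ltbp2* higher by 0.96 (SE 0.021). The matrix genes *Col1a1* (-1.62, SE 0.039), *Fbn2* (-1.27), *Mmp2* (-1.26), *Thbs2* (-0.97) and *Lox* (-0.74) were lower in IP, and the astrocyte proteoglycan gene *Ncan* was higher (0.96, SE 0.022). Among receptor components *Cd109* (-0.94) and *Eng* (-0.64) were lower, as *Tgfbr3* was, and *Vasn* (0.24) and *Dab2* (0.23) were higher. *Pmepa1* (-0.46) and *Trim33* (-0.28) were lower and *Nedd4l* (0.31) and *Smad6* (0.27) higher among the Smad regulators. Of the ligands and inhibitors of the related arm *Bmp4* (-0.72), *Fst* (-0.59) and *Inhba* (-0.57) were lower and *Bmp6* (0.69) was higher. The medians of the 5 lists, in the order of the counts, were 0.06, -0.02, -0.06, 0.11 and -0.07.

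The genes whose log2 CPM followed each member most closely over the 12 IP libraries were taken by Pearson's r, over genes that averaged 5 CPM or more, and the value over the 6 input libraries is given beside it. These are descriptions over libraries that share their treatment groups and normalization. *Tgfb1* was followed by *Tmem221* (r = 0.97 in IP, 0.80 in input), *Iqce* (0.95 and 0.29) and *Ptgr1* (0.94 and 0.68), *Tgfb2* by *Tlk1* (0.95 and 0.89), *Tigd2* (0.94 and 0.73) and *Rap1gds1* (0.94 and 0.84), and *Tgfb3* by *Gps2* (0.92 and 0.68), *Thop1* (0.91 and 0.72) and *Flot1* (0.91 and 0.98). *Tgfbr3* was followed by *Ank2* (0.98 and 0.83), *Dennd5a* (0.98 and 0.87) and *Psme4* (0.97 and 0.87), *Tgfbr1* by *Arhgef10* (0.85 and -0.63), *Ltn1* (0.82 and -0.49) and *Rab3gap2* (0.81 and 0.25), and *Tgfbr2* by *Ncbp3* (0.86 and 0.22), *Arrdc4* (0.82 and -0.31) and *Gtf2e1* (0.80 and 0.22). For the Smads the genes were *Arcn1* (0.89 and 0.09) and *Thumpd1* (0.84 and 0.46) beside *Smad2*, *Lrrc49* (0.90 and 0.02), *Elmod2* (0.87 and 0.59) and *Peak1* (0.83 and 0.90) beside *Smad3*, and *Tatdn3* (0.84 and 0.26), *Srpr* (0.84 and 0.44) and *Prrg2* (0.79 and 0.13) beside *Smad7*. *Skil* was followed by *Kmt2a* (0.96 and -0.58), *Dyrk2* (0.93 and 0.94) and *Katnal1* (0.93 and 0.23). The input values thus ranged widely among genes picked in IP.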

How the data were processed

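Bulk RNA sequencing was analysed from 18 libraries of mouse astrocyte cultures. The deposited values were read pair counts per gene without normalization; the submitters' processing notes name Trimmomatic, STAR and SAMtools and the genome builds GRCm38 and mm10. The authors counted without regard to strand, and 5.50% of pairs on average overlapped more than 1 gene and were left out. A further 3.60% mapped to several places. The table of all libraries and the single-library files held identical counts, and 26 symbols that a spreadsheet had turned into dates were restored by gene identifier.

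Genes whose counts summed to 10 or more over all 18 libraries went into the quasi-likelihood test of edgeR 4.0.16 (R 4.3.3, limma 3.58.1) after trimmed-mean (TMM) scaling, with Benjamini-Hochberg adjustment over all genes and a threshold of 0.05. Ethanol was tested within each fraction on its own libraries. Each SE was derived from the test, as the absolute log2 fold change over the square root of F, the quasi-likelihood statistic, and is approximate. The members and gene lists were chosen with earlier results of these data known. In each list the 4 genes with the largest absolute log2 fold change among those called, averaging 5 CPM or more, were named, besides the 10 members, the 3 genes most like each member, *Aldh1l1*, *Rpl10a*, and markers that lead their list or stand at 0; *Csf1r*, *Ptprc* and *S100b* were named after their values were seen. A gene that the likeness rule selected is not reported here. IP and input libraries of replicates 4 to 6 come from the same dishes by their labels, and the correlations of their deviations from the group means were 0.022 to 0.147. TPM were computed from the counts over GENCODE exon lengths. DESeq2 1.42.0 served as an alternative. The fits were also run on simulated counts with independent libraries, the same spread setting for every gene and true changes larger than the ethanol effects of the members. That run cannot show how well effects as small as those of the members are found.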

Additional observations from a re-analysis of the deposited data

How the results depend on the processing

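*Tgfb1* and *Tgfbr3* were called after ethanol in every alternative, and on leaving out any 1 library, but not in the test against a 1.2-fold change. Their log2 fold changes were 0.14 to 0.20 and 0.24 to 0.28 in IP and 0.12 to 0.14 and 0.17 to 0.19 in input over the other alternatives, and 0.15 to 0.18 and 0.25 to 0.28 in IP and 0.11 to 0.14 and 0.15 to 0.21 in input on leaving out a library. That test called 0 of the members in IP, 0 in input and 4 between fractions, and 95, 55 and 4936 of all genes in place of 5233, 3672 and 12498. On the lists it called, in the order latency, receptor components, Smads, targets and BMP arm, 0, 0, 0, 3 and 0 genes in IP; in input 1, 0, 0, 3 and 0; and 8, 3, 2, 21 and 7 between fractions. IP replicates 1 to 3 alone gave 2995 calls in all, 3 on the Smad list and 7 on the BMP list, and 1 fit of all 4 groups gave 2175 calls in input, with 3 on the latency, 5 on the Smad and 6 on the BMP list. Leaving out 1 library gave 2 to 3 members called in IP, 4 in input, 9 to 10 between fractions and 0 for the difference, 5 to 8 latency and 6 to 10 Smad genes in input, and 0 to 1 genes in all for the difference (1 without IP ethanol replicate 3). Over all genes the same fits called 4616 to 5244 in IP, 2861 to 3164 in input and 12069 to 12503 between fractions.

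*Tgfb2* in IP was not called with no filter on low counts (adjusted p = 0.0542), with GC content and length trends removed (0.0584), or in replicates 1 to 3 (0.0899) or 4 to 6 (0.426). Replicate numbers did not pair control with ethanol dishes (correlations of -0.103 to 0.224 in IP and 0.0173 to 0.0634 in input). With that number as a replicate block 5782 genes were called in IP and 3829 in input, with 4 members each time, *Tgfb3* joining in IP (-0.06, adjusted p = 0.0307), as it did without the filter (0.0421). With the dish block the difference between fractions was called for 102 genes in all, 2 on the latency and 1 on the target list, against 0, and DESeq2 called 2 in all. *Smad7* between fractions was also not called with a filter of 1 CPM (adjusted p = 0.126), in control (0.369) or ethanol libraries (0.127) alone, or in the 12 matched libraries without a block (0.0740).

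Values that changed sign were not called in either direction. After ethanol in IP these were *Tgfbr1* at 0.081 in replicates 4 to 6 and -0.035 to 0.012 on leaving out a library, *Tgfbr2* at -0.00093 under the 1 CPM filter and -0.033 with GC and length trends removed, *Smad3* at -0.021 with those trends removed and -0.012 in replicates 1 to 3, and *Smad7* at -0.0307 and -0.0310 in the same order and -0.0052 to 0.020 on leaving out a library. In input they were *Tgfbr2* (-0.039 to 0.0038) and *Smad2* (-0.055 to 0.013) on leaving out a library. For the difference between fractions the dish block gave 0.015 for *Tgfbr1*, 0.025 for *Smad3* and 0.036 for *Skil*, and leaving out a library gave -0.0035 to 0.036 for *Tgfbr2*, -0.050 to 0.018 for *Smad2* and -0.055 to 0.00032 for *Skil*. The cause of these changes was not tested. The input comparison rests on 3 dishes a treatment, and *Tgfbr1* had the fewest read pairs of the members.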

Other observations

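Among the 45 pairs of members, 11 had a Pearson's r of log2 CPM above 0.5 or below -0.5 over the 12 IP libraries, and 8 of these had the same sign over the 6 input libraries. *Smad3* and *Skil* had r = 0.72 in IP, 0.71 after the mean of each treatment was removed and 0.70 in input. *Tgfb3* and *Skil* had r = -0.73, -0.72 and -0.79 in the same order. *Tgfb1* and *Tgfbr3*, the members with the largest ethanol differences in IP, had r = 0.67 over all IP libraries and -0.68 once the treatment means were removed, with 0.86 over the 6 input libraries of both treatments. These values describe few libraries that share their scaling, and the pairs were picked after their values were seen.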
